A study of Mus musculus with 19 samples.

Results

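The genes of glutathione synthesis, recycling, breakdown, peroxidation and conjugation were described in C2C12 cells, a mouse myoblast line, and in mouse soleus muscle. They were chosen by gene name from the probes of 1-colour Agilent whole mouse genome arrays, namely Gclc, Gclm, Gss, Gsr and Ggt1, the numbered Gpx genes, the Gst classes and the Mgst genes. This gave 49 probes for 36 of 27786 genes on the array, and each gene was read from the probe with the highest mean signal over all 19 arrays. The control cells (labelled WT, 6 arrays) carried empty plasmids and the HDAC4&5 cells (6 arrays) carried plasmids for human HDAC4 and human HDAC5, and both had been selected with hygromycin and geneticin. All cells were harvested 48 h after seeding, before confluence. Male db/db mice (db +/+, labelled db, 4 arrays), an obese strain without functional leptin receptor, were compared with heterozygous mice (db -/+, labelled Con, 3 arrays), all 12 weeks old and fasted for 5 h. The methods define a replicate of cells as its own dish or well and count 3 replicates per group in the array experiment. Which of the 6 arrays per cell group were separate dishes is not given in the sources used here, nor whether the stable cells were 1 clone. The p-values in cells therefore measure the spread between these arrays, part of which may be technical.

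Glutathione is a small thiol made in consecutive steps by glutamate-cysteine ligase, whose catalytic subunit is Gclc and whose modifier subunit is Gclm, and by glutathione synthetase (Gss). Glutathione peroxidases (Gpx) use it to reduce peroxides, glutathione reductase (Gsr) returns the oxidised form, and glutathione S-transferases couple it to electrophiles or, in some classes, to lipid peroxidation products. In muscle this system removes peroxides formed by mitochondria and membrane lipids, and Gpx4, which reduces lipid hydroperoxides, is known as the enzyme that restrains ferroptosis.

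Values are log2 signals in which 0 is the 75th percentile of the probes of the same array, so that 1 unit is a factor of 2. Such a value can be compared between groups for 1 gene, but not between genes, since probes differ in brightness. The 75th percentile lay between 494 and 1691 on the C2C12 arrays and between 153 and 686 on the soleus arrays. In soleus it was 153 to 232 on the first array slide and 555 to 686 on the second, and both slides held both groups. The targeted genes were read first. Hdac5 rose by 1.42 ± 0.27 (SE) in the HDAC4&5 cells (adjusted p = 0.000387), while Hdac4 differed by -0.05 ± 0.05 (adjusted p = 0.347). Whether these mouse probes read the human transcripts was not tested. The paper shows western blots of both proteins in its control and overexpressing myoblasts. Its methods state that HDAC4 and 5 kept the overexpressing cells from differentiating into myotubes. The HDAC4&5 arrays went against the label of myoblasts. Myod1, the myoblast master regulator, passed the scanner's test of being well above background on 6 control arrays but on 0 HDAC4&5 arrays, and Des (desmin) fell by 8.45 ± 0.19 on the log2 scale. Summed over 6 myoblast markers, the signal was 81.9 to 196 times the 75th percentile on control arrays and 1.35 to 1.58 times on HDAC4&5 arrays. Neither group had signal well above background for Myf5 or Pax7. Myog, of the same list, differed by -9.67. The muscle fibre list summed to 18.2 to 34.8 times the 75th percentile on control arrays and 0.694 to 0.808 times on HDAC4&5 arrays. Of its genes, Acta1 differed by -7.63, Tnnt1 by -8.57, Tnnc1 by -3.54 and Ckm by -2.58, while Myh7 differed by 1.44 and Myh2 was not tested. The part of muscle differentiation in the C2C12 differences was not tested. Adipocyte, macrophage, endothelial and hepatocyte lists summed to at most 0.302 on every C2C12 array and the erythrocyte list to 0.155 to 0.731. Lyz2 and Fabp4 were nevertheless detected on 6 of 6 HDAC4&5 arrays, and on 0 and 1 control arrays. Whether the arrays of the HDAC4&5 group differ from the controls through the plasmids or because they hold another cell population cannot be told apart, and this applies to every C2C12 difference below.

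Signal was well above background on all 19 arrays for 21 of the 36 genes. Ggt1, the gamma-glutamyltransferase that breaks glutathione down outside cells, and Gpx6 were not well above background on any array. Several members were measured in muscle but not in cells. Gpx3, the secreted peroxidase, and Gpx7, a peroxidase of the endoplasmic reticulum, were not well above background on any of the 12 C2C12 arrays, and their mean was 1.14 ± 0.34 (SD, n = 3) and 0.65 ± 0.10 (SD, n = 3) in control soleus. Gstm4 likewise was read in soleus only, at -1.35 ± 0.53 (SD, n = 3). Gpx5 was well above background on 1 C2C12 array alone. Cells and muscle lay on different slides and were extracted differently, so levels across them are a description with no test.

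Among members measured in both, the kappa class transferase Gstk1, a mitochondrial and peroxisomal enzyme, had a mean of -1.67 ± 0.05 (SD, n = 6) in control cells and 5.85 ± 0.95 (SD, n = 3) in control soleus. Mgst3, a microsomal transferase, had 2.35 ± 0.14 (SD, n = 6) and 5.70 ± 0.50 (SD, n = 3). Gstt3 had -1.60 ± 0.04 (SD, n = 6) and 1.52 ± 0.19 (SD, n = 3). Gsta1 and Gsta2 went the other way, although their relative Gsta3 was detected on all 7 soleus arrays. Gsta1 was at 4.07 ± 0.18 (SD, n = 6) in control cells and at -2.18 ± 0.65 (SD, n = 3) in control soleus, and Gsta2 was well above background on all 12 C2C12 arrays and on 1 of 7 soleus arrays. Gss was at 2.51 ± 0.16 (SD, n = 6) in control cells and -0.53 ± 0.39 (SD, n = 3) in control soleus. Mgst1 was at 1.099 ± 0.14 (SD, n = 6) in control cells, 4.79 ± 0.15 (SD, n = 5) in HDAC4&5 cells and 5.16 ± 0.10 (SD, n = 3) in control soleus.

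**Figure D1:**
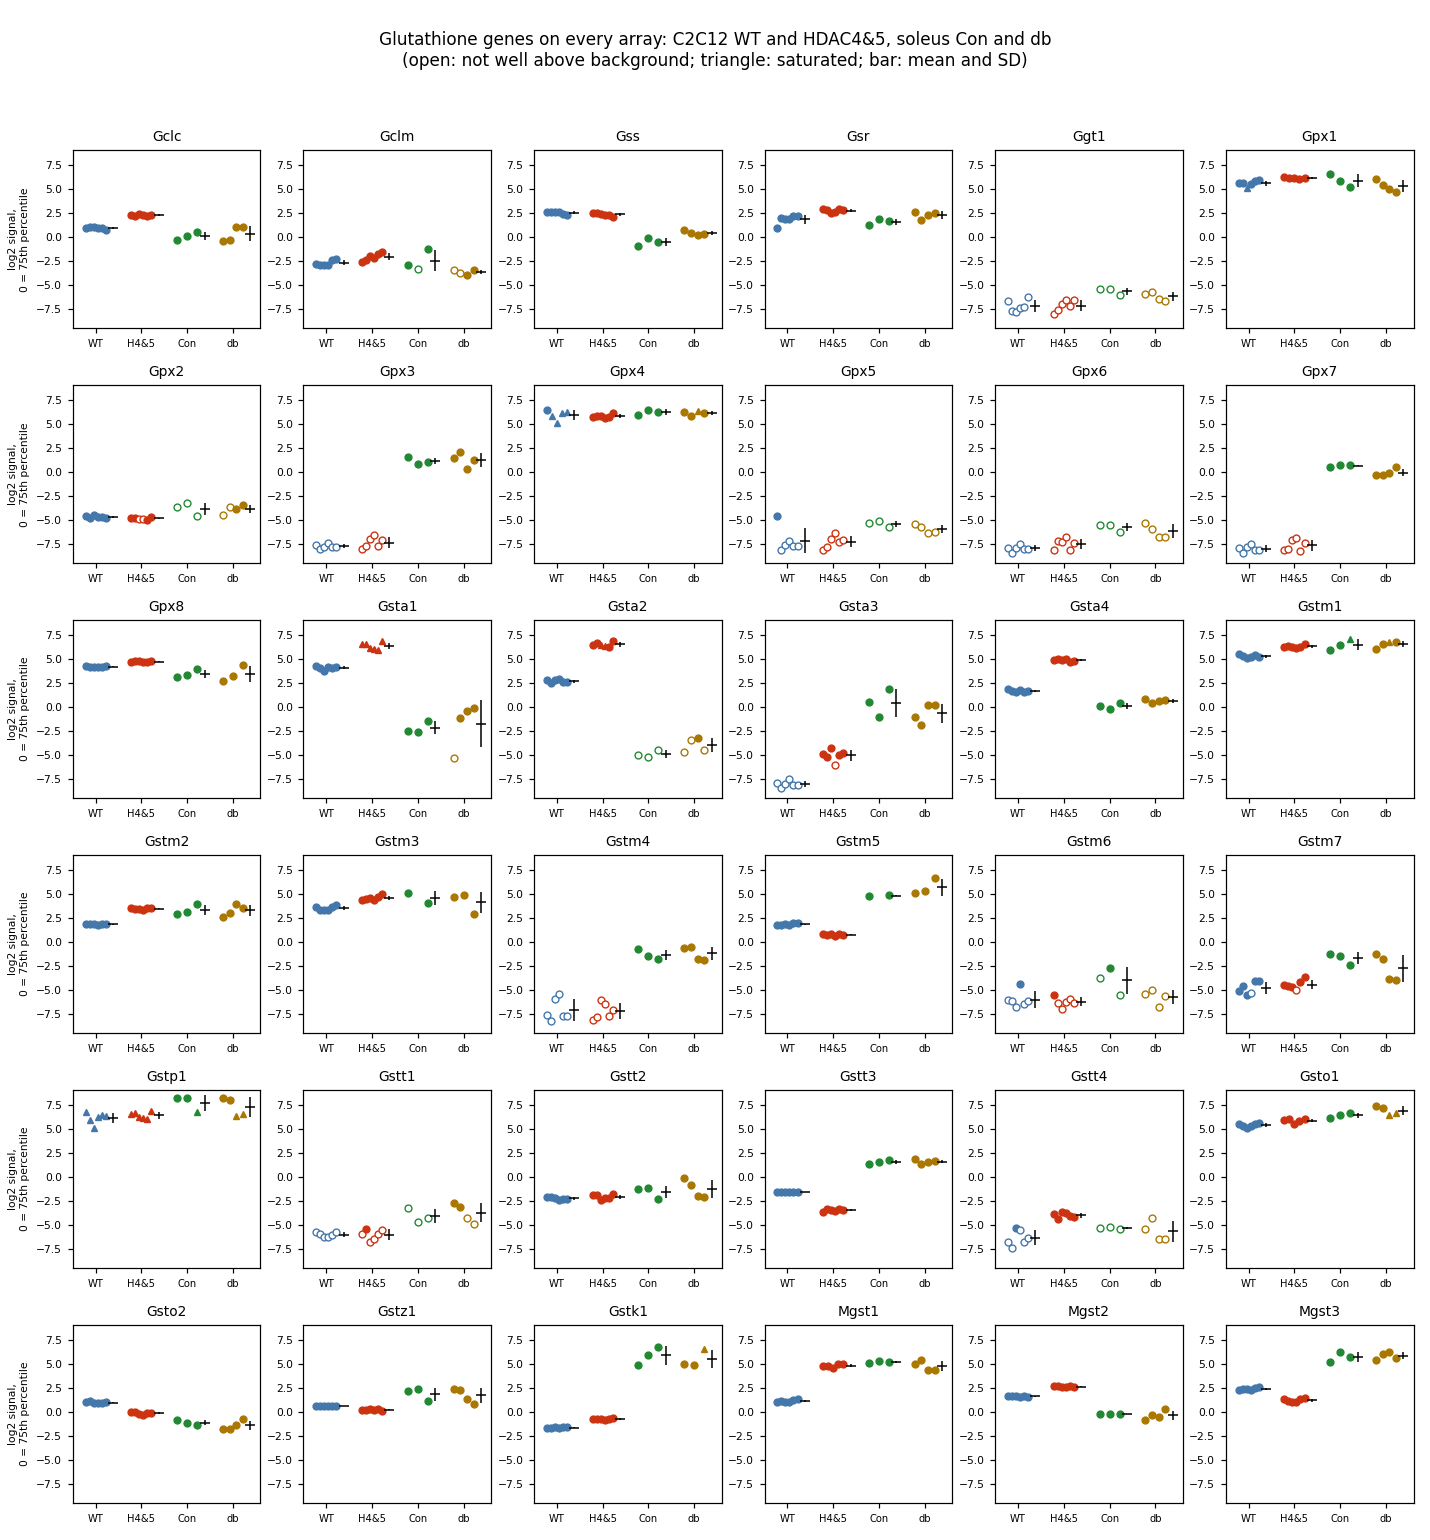
Log2 signal of each glutathione gene on every array (0 is the array's 75th percentile), with 1 panel per gene and the groups C2C12 WT, C2C12 HDAC4&5 (H4&5), soleus Con and soleus db along the x axis; open points were not well above background, triangles were saturated, and the black bar is the mean ± SD. Gpx3, Gpx7 and Gstm4 are filled in soleus only, while Gsta2 and Mgst1 separate the cell groups.

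Overexpression of HDAC4 and 5 in C2C12 cells was compared with the empty plasmids to ask which glutathione genes differed. The transferases Gsta2, Mgst1, Gsta4 and Gsta1 rose, although saturated spots leave Gsta1 and Gsta2 without an upper limit, the rate-limiting Gclc and the reductase Gsr rose, and Gstt3, Mgst3, Gsto2 and Gstm5 fell. Of the 26 members tested, 22 passed an adjusted p of 0.05 in limma, 16 higher and 6 lower. The background was high, as 9780 of 14103 genes (69.3%) passed, 36.5% higher and 32.8% lower. A difference of at least 1 on the log2 scale was called for 14 of the 26 members, against 22.5% of all genes, and for 10 members as higher, against 10.4%. The median difference was 0.57 over the 26 members and 0.05 over all genes tested. In 19 of the 26 members the groups did not overlap, against 54.5% of all genes. These counts cover members that passed a filter on dim probes, Gstt4 only through the HDAC4&5 group and Gpx2 only through the control group, so they describe the tested members and are no support for a change of the family. In the deposited matrix, which is scaled differently, 38.1% of the calls over all genes were higher, against 52.6% here, and the median of all genes was -0.12.

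The alpha class reduces hydroperoxides and conjugates aldehydes, and Gsta4 is the member known for 4-hydroxynonenal, an aldehyde from oxidised lipids. The probes of its measured members are shown because those of Gsta1 and Gsta2 overlap. Capitals mark the 28 bases over which they align, with 27 matches, and the substitution is T40A (Gsta1 base, position from the 5′ end of the Gsta1 probe, Gsta2 base). Cross-hybridisation between the pair was not tested. In mm9 they lie at chr9:78083844-78087325 (+) for Gsta1, chr9:78181644-78181703 (-) for Gsta2 and chr9:78046172-78047344 (+) for Gsta4, and those of Gsta1 and Gsta4 span an intron, as their 60 bases stretch over 3482 and 1173 bases of the genome.
Gsta1: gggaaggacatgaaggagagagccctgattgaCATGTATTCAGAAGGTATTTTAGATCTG
Gsta2: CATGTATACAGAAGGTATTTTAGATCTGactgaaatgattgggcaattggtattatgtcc
Gsta4: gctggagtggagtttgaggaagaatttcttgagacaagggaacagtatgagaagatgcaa

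Gsta2 ran from 2.49 to 2.93 on control arrays (median 2.66) and from 6.25 to 6.85 on HDAC4&5 arrays (median 6.46). The groups lay far apart, and it rose by 3.82 ± 0.11 (SE, adjusted p = 3.52e-12), a fold of 14.2 that saturation on 2 HDAC4&5 arrays may understate. Gsta4 ran from 1.53 to 1.81 on control arrays (median 1.63) and from 4.66 to 4.97 on HDAC4&5 arrays (median 4.85). It rose by 3.19 ± 0.07 (SE, adjusted p = 1.67e-13), with no array saturated. Gsta1 was 3.76 to 4.29 on control arrays (median 4.11) and 5.90 to 6.80 on HDAC4&5 arrays (median 6.34), where it was saturated on 6 of 6, so that it was at least 4.78-fold higher (adjusted p = 1.80e-08). Gsta3 was detected on 0 control and 5 HDAC4&5 arrays. It failed the filter, and its mean of -5.06 there was at least 1.57-fold above the lowest signals that were well above background on control arrays. On its second probe it was well above background on no C2C12 array. All 3 tested alpha genes were thus called higher, against 36.5% of all genes. As the Gsta1 and Gsta2 probes overlap, these may not be 3 separate readings.

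Mgst1, a membrane-bound transferase of microsomes and mitochondria that also has peroxidase activity, changed nearly as much. Its probe, shown for the size of the change and lying at chr6:138104741-138104800 (+) in mm9, reads as follows.
Mgst1: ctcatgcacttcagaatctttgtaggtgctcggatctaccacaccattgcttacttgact

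Mgst1 ran from 0.97 to 1.35 on control arrays (median 1.04) and from 4.56 to 4.94 on 5 HDAC4&5 arrays (median 4.77), the other spot being an outlier. It rose by 3.69 ± 0.09 (SE, adjusted p = 2.78e-12), a fold of 12.9, and the second probe differed by 3.68. Its relatives in the membrane-bound class split. Mgst2 rose by 1.01 ± 0.04 (SE, adjusted p = 1.69e-10), from a range of 1.52 to 1.68 to one of 2.55 to 2.68. Mgst3 fell by 1.17 on the log2 scale (SE 0.08, adjusted p = 4.33e-08), from a range of 2.21 to 2.54 to one of 1.00 to 1.39.

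The mu class genes sit side by side on chromosome 3, with probes between 107701101 and 107843861 in mm9, and did not move as a block. Gstm1, Gstm2 and Gstm3 rose by 1.01 ± 0.08, 1.62 ± 0.04 and 1.04 ± 0.12 (SE, adjusted p = 1.56e-07, 1.90e-12 and 3.45e-06). Gstm2 was 1.73 to 1.86 on control arrays (median 1.81) and 3.34 to 3.52 on HDAC4&5 arrays (median 3.44), ranges that lay well apart. Gstm5, at the end of the cluster and known for brain and testis, went the opposite way. It was 1.70 to 1.91 on control arrays (median 1.80) and 0.60 to 0.81 on HDAC4&5 arrays (median 0.76), and fell by 1.07 on the log2 scale (SE 0.05, adjusted p = 1.13e-09). Gstm4 was not well above background on any C2C12 array, Gstm6 was on 1 array of each group and Gstm7 on 5 of each.

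The theta class, grouped on chromosome 10, also split. Gstt3 was -1.64 to -1.55 on control arrays (median -1.59) and -3.63 to -3.35 on HDAC4&5 arrays (median -3.45). It fell by 1.89 on the log2 scale (SE 0.06, adjusted p = 5.16e-12). Gstt4, of the same class, was -7.38 to -5.36 on control arrays (median -6.57), where only 1 of 6 was well above background. On HDAC4&5 arrays it was -4.43 to -3.67 (median -4.004), with 6 of 6 well above background. It differed by 2.35 ± 0.31 (SE, adjusted p = 1.58e-05), and the second probe by 2.33. Gstt4 entered the test only through the HDAC4&5 group, where it was high, so its calls support nothing. As most control values were not well above background, the size is no measured fold. With normexp background correction, the difference shrank to -0.85 for Gstt3 and 1.01 for Gstt4, and both were still called. Gstt2 differed by 0.19 ± 0.10 (SE, adjusted p = 0.107; 0.0359 with slide as a block), and Gstt1 was well above background on 1 of 12 arrays.

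Among the other cytosolic classes, Gsto2 fell by 1.099 on the log2 scale (SE 0.06, adjusted p = 1.32e-09), from a range of 0.88 to 1.06 to one of -0.30 to -0.03. Its omega class partner Gsto1, which reduces dehydroascorbate and arsenic species, rose by 0.47 ± 0.11 (SE, adjusted p = 0.00227), a call lost with normexp background correction (adjusted p = 0.0745), in the deposited matrix (adjusted p = 0.132) and without slide 3 (adjusted p = 0.0580). Gstz1, an enzyme of tyrosine breakdown, fell by 0.38 on the log2 scale (SE 0.05, adjusted p = 1.13e-05), and Gstk1 rose by 0.91 ± 0.05 (SE, adjusted p = 2.54e-09).

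Gstp1, the pi class enzyme, was saturated on all 12 C2C12 arrays at the probe used, which therefore gives no fold (difference 0.28 ± 0.24, SE, adjusted p = 0.317). Both of its probes are shown because they gave different readings. The first is the probe used, at chr19:4035486-4035545 (-), and the second lies at chr19:4035908-4036723 (-), both in mm9.
Gstp1 probe used: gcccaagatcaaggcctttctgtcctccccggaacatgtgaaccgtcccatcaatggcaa
Gstp1 second probe: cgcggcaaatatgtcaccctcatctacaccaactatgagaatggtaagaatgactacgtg

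The second probe was saturated on 0 of 6 control arrays and 1 of 6 HDAC4&5 arrays. It ran from 5.18 to 5.48 on control arrays and from 6.06 to 6.36 on HDAC4&5 arrays, which did not overlap, and the means differed by 0.88. With the mean of both probes, Gstp1 was higher by 0.58 (adjusted p = 0.00371).

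Of the synthesis genes, Gclc was 0.73 to 1.03 on control arrays (median 0.97) and 2.15 to 2.37 on HDAC4&5 arrays (median 2.25). It rose by 1.32 ± 0.06 (SE, adjusted p = 3.36e-10), a fold of 2.49. Gclm was -2.93 to -2.26 on control arrays (median -2.83) and -2.61 to -1.62 on HDAC4&5 arrays (median -2.07), and these ranges overlapped. It rose by 0.59 ± 0.18 (SE, adjusted p = 0.00899), with 0.89 at its second probe, and did not pass without slide 1 (adjusted p = 0.123). Gss was 2.24 to 2.64 on control arrays (median 2.58) and 2.11 to 2.52 on HDAC4&5 arrays (median 2.35), and differed by -0.16 ± 0.09 (SE, adjusted p = 0.132). With slide as a block, the same difference passed (adjusted p = 0.00664), as it did when replicate numbers were blocked (adjusted p = 0.00324) and without slide 2 (adjusted p = 0.0356). Gsr was 0.97 to 2.13 on control arrays (median 1.91) and 2.49 to 2.87 on HDAC4&5 arrays (median 2.83), with 1 control array far below the rest. It rose by 0.93 ± 0.17 (SE, adjusted p = 0.000354), and its other probes both differed by 0.89.

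Of the 4 peroxidases tested, 0 were called with a difference of at least 1 on the log2 scale, against 22.5% of all genes. With so few genes this count is no result about the class. Gpx1, the abundant cytosolic form, was 5.14 to 5.87 on control arrays (median 5.60) and 5.98 to 6.18 on 5 HDAC4&5 arrays (median 6.16). It rose by 0.54 ± 0.12 (SE, adjusted p = 0.00126), a call lost with normexp (adjusted p = 0.0594), and quantile normalization gave 0.32. Its lowest control value, 5.14, was a saturated spot. Gpx8, of the endoplasmic reticulum, rose by 0.52 ± 0.04 (SE, adjusted p = 7.20e-08; 0.34 in the deposited matrix). Gpx4 was 5.08 to 6.45 on 5 control arrays (median 6.15), 4 of them saturated, and 5.58 to 6.17 on HDAC4&5 arrays (median 5.77). The ranges overlapped, and the difference of -0.13 ± 0.21 did not pass (SE, adjusted p = 0.610). Saturation capped control spots but no HDAC4&5 spot, so a fall may be understated, and the p does not show that Gpx4 was unchanged. The unsaturated control array read 6.45, above every HDAC4&5 array. Gpx2 was called lower by -0.15 ± 0.06 (SE, adjusted p = 0.0339), but was well above background on only 4 of 6 HDAC4&5 arrays. Its sign turned with normexp (0.48), and the call was lost in the deposited matrix (adjusted p = 0.287), with no filter (adjusted p = 0.105), when replicate numbers were blocked (adjusted p = 0.0582) and without slide 1 (adjusted p = 0.258) or slide 3 (adjusted p = 0.108).

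**Figure D2:**
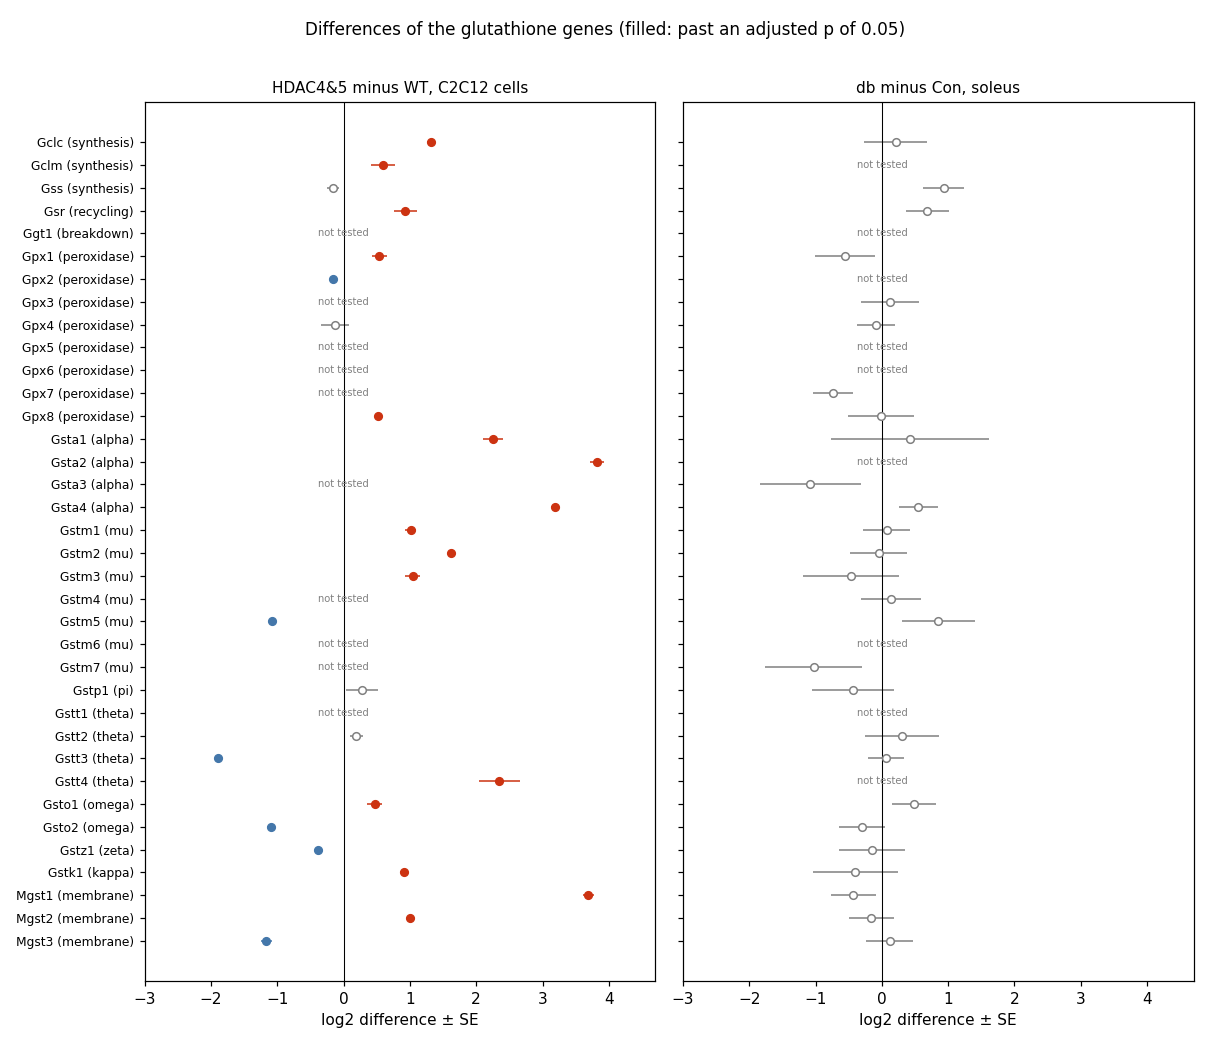
Log2 difference ± SE of each glutathione gene in C2C12 cells (HDAC4&5 minus WT, left) and in soleus (db minus Con, right), ordered by role, with points filled where the adjusted p was under 0.05. In cells 22 of 26 tested members are filled, Gsta2 at 3.82 among them, against 69.3% of all genes. In soleus 0 of 27 are filled, against 0.0077% of all genes.

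Every C2C12 slide held 2 arrays of each group, so the difference could be read within each. Of the 26 tested members, 25 had 1 sign on all 3 slides. The share over all genes was not computed, so this count is no result about the members. The exception was Gpx4 (-0.35 to 0.10), whose positive value came from slide 1, where both control spots were saturated. The within-slide difference ran from 3.55 to 3.99 for Gsta2, from 3.56 to 3.75 for Mgst1, from 3.14 to 3.24 for Gsta4, from 1.25 to 1.36 for Gclc and from -2.001 to -1.82 for Gstt3. Gstt4, near background in control cells, varied most, from 1.73 to 2.92.

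**Figure D3:**
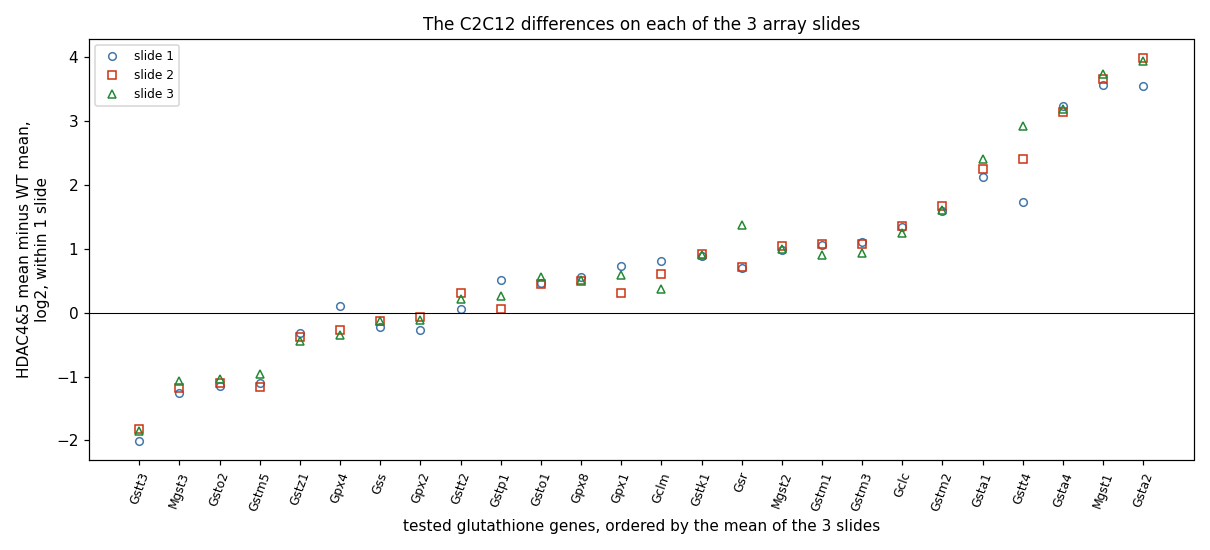
HDAC4&5 mean minus WT mean (log2) within each of the 3 C2C12 slides, for the 26 tested glutathione genes ordered by the mean of the slides, with 2 arrays per group on each slide. The 3 symbols of most genes lie close together, and those of Gstt4 spread from 1.73 to 2.92. Gpx4 alone crosses 0, through slide 1, where its control spots were saturated.

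Promoters of the members were searched for TGACNNNGC, the core of the antioxidant response element that the factor NRF2 (gene Nfe2l2) binds, on both strands of the RefSeq windows from 250 bases before to 50 bases after each start (GRCm38.p6). Of 32 members in that table, 6 held it (18.8%), against 13.99% of 27025 genes. It was held by 2 of 13 members that rose, 1 of 6 that fell and 3 of 13 others (Gsta3, Gstm7 and Ggt1). No entry was found for Gclc, Gsr, Gsta4 and Gstt2. The stretches of the 3 called members are shown with the match in capitals, on the strand of the gene, so that Mgst1 and Gclm hold it on the opposite strand. They lie at chr6:138140426-138140524 (+), chr3:122245378-122245476 (+) and chr3:107895767-107895853 (+). A match is a description of the letters.
Mgst1: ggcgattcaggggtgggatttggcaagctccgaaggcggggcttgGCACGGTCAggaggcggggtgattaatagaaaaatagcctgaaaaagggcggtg
Gclm: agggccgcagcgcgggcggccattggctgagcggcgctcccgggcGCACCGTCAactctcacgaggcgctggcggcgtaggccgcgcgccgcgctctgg
Gstm5: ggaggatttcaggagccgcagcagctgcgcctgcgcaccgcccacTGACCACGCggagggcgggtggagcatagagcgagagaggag

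A list of 53 other redox genes was read beside the members in the same fit. Of 48 tested in C2C12 cells, 34 passed (22 higher, 12 lower), close to the background of 69.3%, with a median difference of 0.14. Slc7a11 and Sod3 passed the filter only through the HDAC4&5 group, where they were high, so their calls within these counts support nothing. Several genes of cysteine supply, glutathione transport and breakdown rose. Slc7a11, the cystine transporter subunit, was detected on 0 control and 6 HDAC4&5 arrays and was at least 6.51-fold higher, with a difference of 3.43 that shrank to 1.46 with normexp (adjusted p = 7.33e-09, for a gene that entered the test through its high group). Ggt7 rose by 2.63 ± 0.08 (SE, adjusted p = 5.67e-12), and Cth, which makes cysteine from cystathionine, by 2.02 ± 0.07 (SE, adjusted p = 1.20e-11). In that group of genes 7 of 10 tested were higher and 2 lower, against 36.5% and 32.8% of all genes.

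Of the NRF2 regulators and targets, 6 of 14 were higher and 5 lower, a share near the 36.5% and 32.8% of all genes. Hmox1, heme oxygenase, rose by 1.75 ± 0.08 (SE, adjusted p = 6.60e-10), while Nfe2l2 fell by 0.80 on the log2 scale (SE 0.08, adjusted p = 4.15e-06), Nqo1 by 0.63 (SE 0.04, adjusted p = 1.18e-08) and the repressor Bach1 by 0.96 (SE 0.16, adjusted p = 0.000107). Keap1, which holds NRF2 in the cytoplasm, differed by -0.21 ± 0.09 (SE, adjusted p = 0.0628), and with slide as a block this difference passed (adjusted p = 0.0107). Txnrd1, thioredoxin reductase, differed by 0.09 ± 0.15 (SE, adjusted p = 0.626), and under quantile normalization it was called lower (-0.18, adjusted p = 0.0317). Of the thioredoxin, peroxiredoxin and glutaredoxin genes, 5 of 15 were higher and 3 lower, at or below the 36.5% and 32.8% of all genes, among them Txnip, a thioredoxin inhibitor, which fell by 0.93 on the log2 scale (SE 0.09, adjusted p = 8.77e-07). In the group of superoxide, peroxide, aldehyde and eicosanoid genes, 4 of 9 were higher and 2 lower, close to the 69.3% of all genes called in either direction, and Alox5ap, the 5-lipoxygenase activating protein and a structural relative of the Mgst enzymes, fell by 3.10 on the log2 scale (SE 0.08, adjusted p = 6.89e-13).

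**Figure D4:**
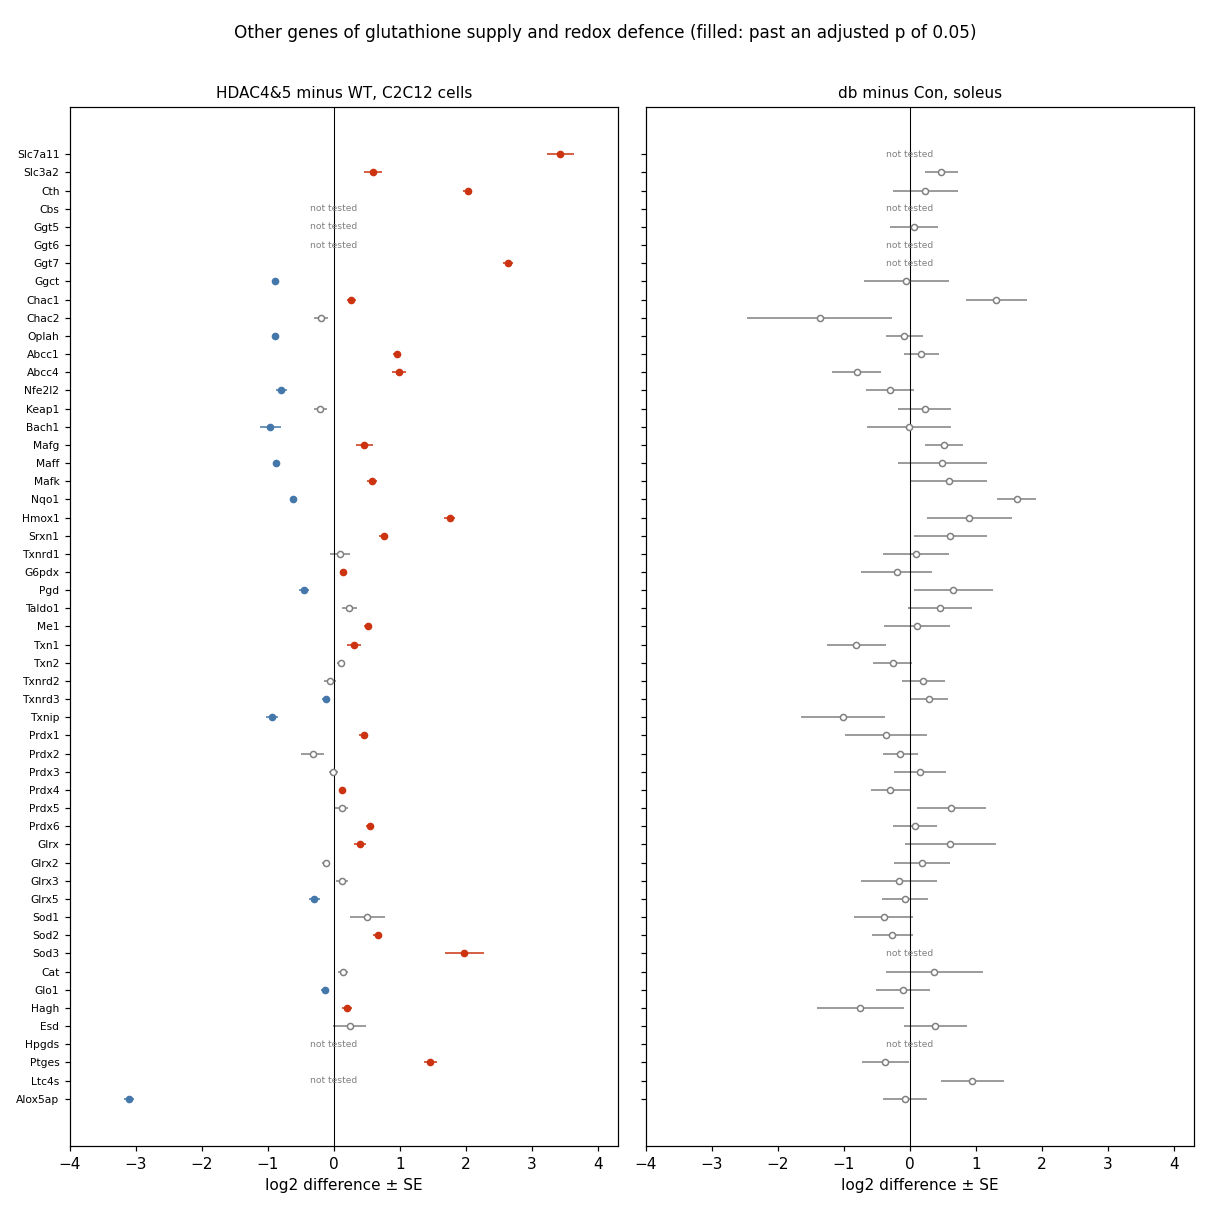
Log2 difference ± SE of the 53 other redox genes in C2C12 cells (HDAC4&5 minus WT, left) and soleus (db minus Con, right), filled where the adjusted p was under 0.05. Slc7a11 and Alox5ap lie at the extremes in cells. Nqo1 has the largest positive difference in soleus, where 0 genes are filled, against 0.0077% of all genes.

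In soleus, db/db mice were compared with heterozygous control mice to ask whether the same genes differed. Of 27 members tested, 0 passed the adjusted p in limma, and 2 had an unadjusted p under 0.05 (3 by the methods' t-test, 0 after its adjustment). Over all genes, 1 of 12987 passed (0.0077%) and 6.34% had an unadjusted p under 0.05. With slide as a block, 0 members passed, while 4 of 27 had an unadjusted p under 0.05 against 17.1% of all genes, and 40 genes (0.308%) passed the adjusted p. The median difference was -0.01 over the members and -0.02 over all genes. The groups did not overlap in 3 members (Gss, Gpx7 and Gstm5), against 10.1% of all genes. In whole muscle, fewer cells of a type and less RNA per cell cannot be told apart. The muscle fibre markers were all 6 well above background on every soleus array, and the marker sums of the other cell types overlapped between groups. The endothelial sum was 20.5 to 29.5 times the 75th percentile in control and 11.0 to 21.9 times in db soleus. The adipocyte sum was 222 to 437 in control and 168 to 308 in db soleus, the macrophage sum 35.8 to 122 and 41.6 to 114, and the erythrocyte sum 51.3 to 171 and 90.2 to 157. Single adipocyte, macrophage and fibre markers lay on both sides of 0, and the fibre markers ran from -0.93 (Acta1) to 0.07 (Ckm). Of the macrophage list, Cd163 differed by 1.35 ± 0.84, Csf1r by 0.98 ± 0.41, Lyz2 by 0.28 ± 0.52 and Cd68 by 0.12 ± 0.54 (SE, adjusted p = 0.932, 0.777, 0.979 and 0.992 in limma). Adgre1, of that list, differed by -0.05 ± 0.63 (SE, adjusted p = 0.995 in limma). The endothelial and the tested erythrocyte markers were all lower in db soleus. Kdr differed by -1.10 ± 0.45, Cdh5 by -1.06 ± 0.41, Vwf by -0.36 ± 0.53, Tek by -0.20 ± 0.40 and Pecam1 by -0.20 ± 0.36 (SE, adjusted p = 0.770, 0.763, 0.975, 0.983 and 0.979 in limma). Of the adipocyte list, Lep (leptin) differed by 3.62 ± 0.41, Cidec by 1.19 ± 0.49, Plin1 by 0.72 ± 0.80 and Adipoq by 0.53 ± 0.33 (SE, adjusted p = 0.126, 0.770, 0.962 and 0.936 in limma). Cfd (adipsin) differed by -1.91 ± 0.59 and Fabp4 by -0.46 ± 0.54 (SE, adjusted p = 0.614 and 0.963 in limma). Of the erythrocyte list, Hba-a1 differed by -0.31 ± 0.36, Hbb-b1 by -1.74 ± 0.28 and Alas2 by -1.76 ± 0.83 (SE, adjusted p = 0.963, 0.165 and 0.828 in limma). No hepatocyte marker and no Epb42 was well above background. The part of these cells in the values below was not tested.

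Gss read -0.92, -0.13 and -0.55 in control soleus and 0.75, 0.39, 0.16 and 0.28 in db soleus. Every db muscle lay above every control muscle, and the difference was 0.93 ± 0.31 (SE, adjusted p = 0.637 in limma), with 1.095 within the first slide and 0.77 within the second. Its probe lies at chr2:155389432-155390531 (-) in mm9 and is shown because this member had the lowest p in soleus.
Gss: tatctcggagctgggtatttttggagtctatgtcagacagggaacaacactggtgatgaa

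Gpx7 read 0.54, 0.69 and 0.73 in control soleus and -0.32, -0.36, -0.13 and 0.49 in db soleus. Here every db muscle lay below every control muscle, by -0.74 ± 0.31 (SE, adjusted p = 0.777 in limma). Gsr read 1.27, 1.87 and 1.60 in control soleus and 2.61, 1.71, 2.30 and 2.43 in db soleus, so that 1 db muscle lay within the control range, and the difference was 0.68 ± 0.32 (SE, adjusted p = 0.834 in limma). Gstm5 read 4.76 and 4.85 in 2 control muscles and 5.05, 5.30 and 6.62 in 3 db muscles, the other spots being outliers, and the difference of 0.85 ± 0.56 did not pass (SE, adjusted p = 0.948 in limma). Its highest value was on the second slide, where no control value remained, and within the first slide, as with slide as a block, the difference was 0.37.

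Gclc read -0.28, 0.10 and 0.53 in control soleus and -0.38, -0.36, 1.02 and 1.03 in db soleus. The db values followed the slide, with both low values on the first and both high values on the second, and the difference was 0.21 ± 0.47 (SE, adjusted p = 0.988 in limma). Gsta4 differed by 0.55 ± 0.29 (SE, adjusted p = 0.874 in limma), Gsta3 by -1.08 ± 0.76 (SE, adjusted p = 0.949 in limma) and Gpx1 by -0.56 ± 0.45 (SE, adjusted p = 0.952 in limma). Within the first slide Gsta3 differed by -1.19 and within the second by -1.69, and its second probe differed by -1.60. With slide as a block, Gsta3 differed by -1.39 ± 0.41 (SE, adjusted p = 0.170 in limma). Gpx3 differed by 0.12 ± 0.43 (SE, adjusted p = 0.992 in limma) and Gpx4 by -0.09 ± 0.28 (SE, adjusted p = 0.992 in limma), both well inside the spread between muscles. Gclm could not be tested, as it was well above background on 2 of 3 control and 2 of 4 db arrays, and Gsta2, Ggt1, Gpx2, Gpx5, Gpx6, Gstm6, Gstt1 and Gstt4 were too dim as well. The main fits in soleus leave slide out, and with slide as a block the SE was 0.23 for Gclc, 0.27 for Gpx1 and 0.34 for Gpx3. With errors of either size, a p that misses the threshold does not show that the groups were alike.

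Of the 47 other redox genes tested in soleus, 0 passed the adjusted p, against 0.0077% of all genes. An unadjusted p under 0.05 was found for 2, against 6.34% of all genes. Nqo1, the quinone reductase, ranged from 1.83 to 2.09 in 3 control muscles and from 3.42 to 3.76 in 3 db muscles, with 1 db spot an outlier. It differed by 1.62 ± 0.29 (SE, adjusted p = 0.279 in limma), and with slide as a block the adjusted p was 0.0561. Chac1, which degrades glutathione inside cells and is named after its value was seen, differed by 1.31 ± 0.47 (SE, adjusted p = 0.711 in limma). Hmox1 differed by 0.91 ± 0.64 (SE, adjusted p = 0.949 in limma), Keap1 by 0.23 ± 0.40 (SE, adjusted p = 0.978 in limma), Txnrd1 by 0.10 ± 0.50 (SE, adjusted p = 0.992 in limma) and Nfe2l2 by -0.30 ± 0.36 (SE, adjusted p = 0.963 in limma). Slc7a11 was not well above background on any soleus array.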

How the data were processed

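The authors hybridised Cy3-labelled RNA (100 ng) to 1-colour arrays, 1 per sample, and deposited the intensity of every spot from Feature Extraction 9.5.1.1, whose processed intensity is background-subtracted but not scaled between arrays. The deposited matrix holds a ratio of that intensity to a constant per array for 15 of 19 columns (within 0.01 on the log2 scale). The remaining columns, labelled Con 1, Con 2, db 3 and db 4, are all of soleus and match no scanner file closely (SD of 0.36 to 0.45 on the log2 scale). The db columns of the matrix are numbered differently from the scanner files, so it was used by group only. Here each processed intensity was divided by its array's 75th percentile and log2 taken, outlier spots were left out and saturated spots kept. Genes entered a test if all arrays of 1 of its groups, or both, were well above background. Tests were run in limma 3.58.1 (R 4.3.3), separately for cells and muscle, with Benjamini-Hochberg adjustment over all genes at 0.05. RefSeq accessions named 27297 of 41174 probes. The paper gives 3 replicates per group, whereas 6, 6, 3 and 4 arrays were used here. Coordinates of probes (mm9) come from the scanner files. The number of arrays limits the precision.

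A group with no array well above background was given, per array, the higher of its own value and the lowest signal well above background. Replicates of the same number deviated together (correlations of 0.19 to 0.55 for 6 C2C12 pairs and 0.43 to 0.69 for 3 soleus pairs), but so did other arrays of the same slide (0.19 to 0.53 and 0.33 to 0.74), and a number thus marks its slide. In the soleus replicate block, db replicate 4 has no partner and drops out. Members and lists were chosen with earlier results of these data known. By rule, the text names the synthesis and recycling genes, Ggt1, Gpx1, Gpx3 and Gpx4, in each comparison up to 8 rises and 8 falls past the adjusted p (in soleus, where there were 0, those past an unadjusted p), and from the other list 6 set genes and 3 rises and 3 falls; the rest is named to account for all members. Alternatives were quantile normalization, normexp (offset 50), the matrix, other filters, outlier spots kept, averaging a gene's probes, blocking on slide or replicate, leaving out slides or soleus arrays, an unadjusted p, a 1.5 fold minimum and a plain t-test (called the methods' t-test here). The steps were tested on simulated data.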

Additional observations from a re-analysis of the deposited data

Results flagged for a closer look

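Among 72 groups of 4 or more arrays in which a tested member was well above background on every array, 2 held an array far from the others, where chance gives about 1 in 20, or 3.6. Gclc read 0.73 on control C2C12 replicate 6 and 0.93 to 1.03 on the other control arrays. Gsr read 0.97 on control C2C12 replicate 1 and 1.82 to 2.13 on the others. Both lie in control groups whose HDAC4&5 counterpart was higher on every array, and without the slide of that array the difference was 1.29 for Gclc and 0.71 for Gsr.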

How the results depend on the processing

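In C2C12 cells the count of 22 members ran from 17 to 24 over the alternatives. The median of 0.57 was 0.42 in the deposited matrix (21 members), 0.42 with all 36 members and no filter, and 0.66 with the mean of all probes. Asking for a fold of at least 1.5 left 5356 genes and 18 other redox genes. Sign turned for Gpx2 with normexp (0.48), for Gpx4 without slide 3 (0.015), and for Txnrd1 under quantile normalization (-0.18), normexp (-0.055), the matrix (-0.24) and without slide 1 (-0.041). With the replicate block 22 members passed, and with the slide block 24, which adds Gss and Gstt2; the cause was not tested. In soleus, 0 members passed under any alternative with an adjusted p, the lowest being 0.138. An unadjusted p gave 2 members, 2 other redox genes and 823 genes, and the methods' t-test, not adjusted, 3, 3 and 967. The single gene called became 2 with the methods' t-test or quantile normalization, 0 with normexp, the matrix or the stricter filter, 40 with the slide block, and 0 to 2 with 1 array left out. The replicate block gave 1 gene there and turned Gclc to -0.025. Of 27 members, 16 changed sign under at least 1 of 18 settings. Named members among them were Gclc, Gpx3 and Gpx4, the last also in the matrix (0.13). Of the other redox genes, sign turned for Nfe2l2 with the mean of all probes (0.55) and Txnrd1 under quantile normalization (-0.15) and with the slide block (-0.082). With 1 array left out, Gclc ran from -0.025 to 0.45, Gpx3 from -0.14 to 0.43, Gpx4 from -0.24 to 0.055, Keap1 from -0.055 to 0.42 and Txnrd1 from -0.22 to 0.38; the causes were not tested. Saturation limits Gsta1, Gsta2, Gstp1, Gpx4 and Gpx1, and low signal limits Gstt4, Gsta3, Gpx2 and Slc7a11.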
